A study of Mus musculus with 8 samples.

Results

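The nuclear factor I (NFI) genes *Nfia*, *Nfib*, *Nfic* and *Nfix* and the zinc finger gene *Zbtb20* were followed in sorted cells of the fetal mouse bowel. The members were the rows of the mRNA count table that carry these gene symbols, 5 of 29092 genes. The study lists *Nfia*, *Nfib* and *Zbtb20* as predicted targets of all 5 of its miRNAs of interest. These were miR-488, miR-137, miR-124, miR-27b and miR-9. *Nfic* is on 2 of these lists (miR-9 and miR-124) and *Nfix* on 2 (miR-124 and miR-137), so the pair serves as a comparison within the family.

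Bowels from stomach to anus were taken at E13.5 (embryonic day) from *Ednrb-EGFP* embryos, in which enteric neural crest-derived cells (ENCDCs, the precursors of enteric neurons and glia) make EGFP. The embryos came from heterozygous *Ednrb-EGFP* parents mated to C57BL/6J mice, and the deposited labels give the genotype as wild-type. Cells were sorted into GFP+ ENCDCs and GFP- gut cells, the rest of the bowel wall, and both populations therefore came from transgenic embryos. There were 4 mRNA libraries of each, and some of the RNA was a pool of more than 1 sort. The p-values thus measure the spread between these libraries. The gut samples are a mixture of cell types, and in such bulk RNA, fewer cells of a type and less RNA per cell cannot be told apart.

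NFI proteins are transcription factors that bind DNA as dimers, with a DNA-binding domain shared by all members of the family. In the developing brain and spinal cord they take part in the change from making neurons to making glia, and they also act in lung, muscle, skeleton and hair follicle stem cells. ZBTB20 belongs to the BTB zinc finger proteins, many of which repress transcription, and is known from hippocampus, pituitary, astrocytes and liver, where it represses the fetal gene *Afp*. A miRNA guides a silencing complex to mRNAs, mostly in the 3' UTR, by pairing with its bases 2 to 8, the seed.

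The mature sequences of 4 of the 5 miRNAs were taken from RefSeq (GRCm38.p6) and are shown 5' to 3' with the seed in capitals, since the prediction that groups *Nfia*, *Nfib* and *Zbtb20* rests on these bases. No sequence was at hand for miR-124, which was left out of the search. No seed is shared between the 4 miRNAs.
miR-9-5p: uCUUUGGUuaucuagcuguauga
miR-27b-3p: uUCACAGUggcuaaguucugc
miR-137-3p: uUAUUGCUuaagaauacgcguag
miR-488-3p: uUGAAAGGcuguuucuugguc

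The longest annotated 3' UTR of each gene (GENCODE M21, mm10) was searched on the transcript strand for the letters that pair with each seed. These were ACCAAAG or CCAAAGA for miR-9-5p, ACTGTGA or CTGTGAA for miR-27b-3p, AGCAATA or GCAATAA for miR-137-3p and CCTTTCA or CTTTCAA for miR-488-3p. A match to the first form alone is a 7mer-m8, to the second alone a 7mer-A1, and to both, overlapping, an 8mer. *Nfia* held 6 matches in 7639 bases, *Nfib* 6 in 6621 and *Zbtb20* 23 in 23858, and each of the 3 genes held at least 1 match for all 4 miRNAs. *Nfic* held 3 matches in 4868 bases, all for miR-9-5p, and *Nfix* held 1 in 3951 bases, for miR-137-3p. A match is a description of the letters and does not show that the site is used.

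UTR length went with these counts. The *Zbtb20* 3' UTR is very long: only 2 of 21010 UTRs in the annotation are longer, and the median is 960 bases. Matches per kb were 0.785 in *Nfia*, 0.906 in *Nfib*, 0.616 in *Nfic*, 0.253 in *Nfix* and 0.964 in *Zbtb20*. Of all 21010 UTRs, 1.5% held a match for all 4 miRNAs. Among UTRs within 25% of the same length, the share was 21.5% of 438 for *Nfia*, 16.9% of 667 for *Nfib* and 50% of 4 for *Zbtb20*. *Nfic* and *Nfix* held matches for 1 of the 4 miRNAs. Matches for at least as many were held by 95.7% of 1385 UTRs like *Nfic* in length and 91.4% of 2044 like *Nfix*. For single miRNAs, 20.3% of all UTRs held a miR-9-5p match, 26.1% a miR-27b-3p match, 14.3% a miR-137-3p match and 21.4% a miR-488-3p match.

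**Figure D1:**
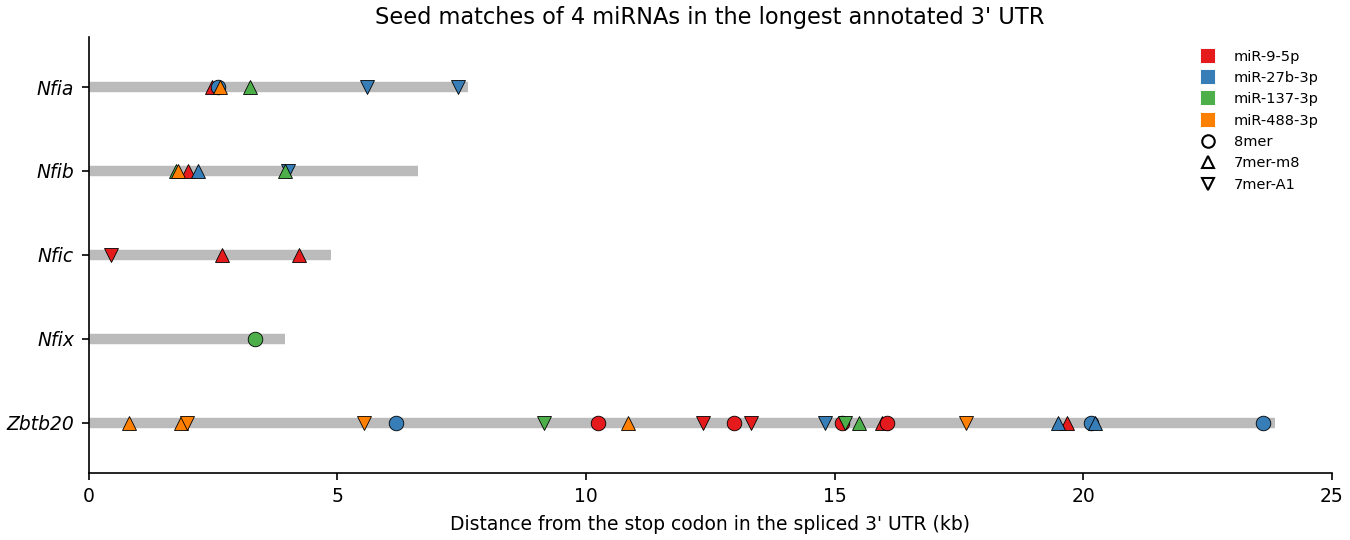
Position of each seed match (x axis, kb after the stop codon in the spliced 3' UTR) in the 5 genes, with color for the miRNA, shape for the kind of match and a grey bar for the length of the UTR. The 23 matches of *Zbtb20* are spread over 23858 bases, *Nfia* and *Nfib* carry 6 each, and *Nfic* and *Nfix* carry matches for 1 of the 4 miRNAs.

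In *Nfia* and *Nfib*, 1 match for each of the 4 miRNAs lay closer together than in *Zbtb20*, whose UTR is longer. The strongest match for each miRNA (8mer before 7mer-m8 before 7mer-A1, then the one nearest the stop codon) fell within 755 bases of *Nfia* and within 437 bases of *Nfib*, and these were also the shortest stretches that hold a match for each of the 4. In *Zbtb20* the strongest matches spread over 14674 bases, and the shortest such stretch was 2834 bases. Such stretches were not measured in other UTRs of like length, so how common they are is not known. The miR-9-5p sites and their flanks are shown for the genes that hold one, with the match in capitals.
*Nfia*, chr4:98113709-98113736, plus strand: tttttgtttgACCAAAGtcagtgctgca
*Nfib*, chr4:82294781-82294808, minus strand: gttttaattgACCAAAGtgggtactgct
*Nfic*, chr10:81398364-81398391, minus strand: cttaaagttcACCAAAGctaagacagtt
*Zbtb20*, chr16:43628974-43629001, plus strand: tttacattaaACCAAAGAtaagtatttt

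The flanks of the *Nfia* and *Nfib* miR-9-5p sites resembled each other. Of 21 bases around the match, 14 were the same. The same count was 4 of 20 for the miR-27b-3p sites, 7 of 21 for the miR-137-3p sites and 2 of 21 for the miR-488-3p sites of these 2 genes. Between their sites for different miRNAs it ran from 2 to 8. The miR-137-3p sites are shown because *Nfix*, with 1 match in all, holds an 8mer there while the other 3 genes hold a 7mer-m8 as their strongest.
*Nfia*, chr4:98114464-98114491, plus strand: aaacaaactaAGCAATAgtttgggcagt
*Nfib*, chr4:82295018-82295045, minus strand: gtaatcgaccAGCAATAttttcagtatt
*Nfix*, chr8:84705303-84705330, minus strand: aaaaaaaaggAGCAATAAagttatgaga
*Zbtb20*, chr16:43634227-43634254, plus strand: ctaccggaagAGCAATAgactgtgtggc

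The deposited counts had been normalized to nearly equal totals, 13250893 to 13267220 per library, so sequencing depth is not known from them. Enteric progenitor markers (10 of 10) and neuronal markers (10 of 10) were higher in ENCDCs, as the sort implies. Mesenchyme markers were lower for 10 of 12 and higher for 2, smooth muscle for 8 of 8, epithelium for 7 of 8, mesothelium for 4 of 5, macrophages for 6 of 6 and erythroid cells for 7 of 7. No marker of these cell types was at 0 in all ENCDC samples. Endothelium was depleted least (5 of 8 lower, 1 higher). ENCDC replicate 3 stood apart: it held 17.7% of the mean gut level of summed smooth muscle markers, against 2.74% to 6.13% in the other 3 ENCDC samples. Summed over the 10 mesenchyme markers called lower, a sum chosen after their values were seen, it held 12.1% against 1.74% to 4.88%. Over all 12, with *Postn* and *Fbln1*, which were higher in ENCDCs, it held 17.4% against 7.32% to 10.2%. Results that move with it are given with and without it.

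ENCDCs held less mRNA of all 4 NFI genes than gut cells did, and more of *Zbtb20*. The study asked which mRNAs its miRNAs might regulate in ENCDCs, and this comparison gives the level of 3 shared predicted targets beside the 2 other genes of the family. The quasi-likelihood test of edgeR was fitted over 18866 genes, after scaling by TMM factors (normalized counts), with Benjamini-Hochberg adjustment. A gene was called at an adjusted p under 0.05. Of the 5 genes, 4 were called lower and 1 higher, while 20.9% of all genes tested were called lower and 17.0% higher. The populations did not overlap for 4 of the 5, against 38.2% of all genes. The median log2 fold change of all genes was -0.04.

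*Nfia* (ENSMUSG00000028565; chromosome 4, 97772734 to 98118874, plus strand) drives gliogenesis in the spinal cord. Its normalized counts were 362.5, 271.5, 120.5 and 177.7 in ENCDC replicates 1 to 4 and 577.1, 617.5, 624.7 and 662.4 in gut replicates 1 to 4. Every gut sample was above every ENCDC sample, and the ENCDC samples spread widely (coefficient of variation 45.7%, against 5.63% in gut). The log2 fold change was -1.41 ± 0.28 (standard error; edgeR adjusted p = 0.00245), or 2.66-fold lower. Without ENCDC replicate 3, the lowest, it was -1.20.

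*Nfib* (ENSMUSG00000008575; chromosome 4, 82290173 to 82705750, minus strand), needed for lung maturation, had 2211.5, 1765.5, 1438.9 and 1601.3 normalized counts in ENCDC samples and 3648.3, 3896.9, 4540.4 and 4802.4 in gut samples. It had the highest counts of the 5 genes in every library. Its log2 fold change was -1.27 ± 0.14 (standard error; edgeR adjusted p = 3.77e-05), or 2.41-fold lower, with no overlap. *Nfia* and *Nfib* ranked the ENCDC samples alike, from replicate 3 as the lowest through 4 and 2 to 1 as the highest.

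*Nfic* (ENSMUSG00000055053; chromosome 10, 81396186 to 81455635, minus strand), known for its role in tooth root formation, varied least of the 5 genes among ENCDC samples. Its normalized counts were 217.3, 204.4, 228.9 and 265.5 in ENCDC samples and 646.1, 704.1, 797.4 and 778.3 in gut samples. The populations were well apart, with a coefficient of variation of 11.5% in ENCDCs and 9.53% in gut. The log2 fold change was -1.67 ± 0.15 (standard error; edgeR adjusted p = 6.51e-06), or 3.19-fold lower.

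*Nfix* (ENSMUSG00000001911; chromosome 8, 84699876 to 84800344, minus strand), which controls the fetal program of skeletal muscle, had the largest difference of the 5 genes. It had 44.7, 17.3, 57.2 and 24.8 normalized counts in ENCDC samples and 393.5, 296.4, 393.7 and 407 in gut samples. The lowest gut sample was thus far above the highest ENCDC sample. The log2 fold change was -3.37 ± 0.35 (standard error; edgeR adjusted p = 2.38e-05), or 10.3-fold lower, and 9.11% of the genes tested had a lower one. Without ENCDC replicate 3 it was -3.68.

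*Zbtb20* (ENSMUSG00000022708; chromosome 16, 42875881 to 43642602, plus strand) went the other way. It had 1205.3, 789.2, 422.7 and 937 normalized counts in ENCDC samples and 309, 262, 523 and 510.9 in gut samples. The populations overlapped, because ENCDC replicate 3 lay below gut replicates 3 and 4. The log2 fold change was 1.06 ± 0.31 (standard error; edgeR adjusted p = 0.0205), or 2.09-fold higher. The call was lost without ENCDC replicate 1 (log2 fold change 0.84, adjusted p = 0.0653 from edgeR), gut replicate 1 (0.96, 0.0617) or gut replicate 2 (0.88, 0.0669). Without ENCDC replicate 3 it was 1.28 (adjusted p = 0.0014).

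**Figure D2:**
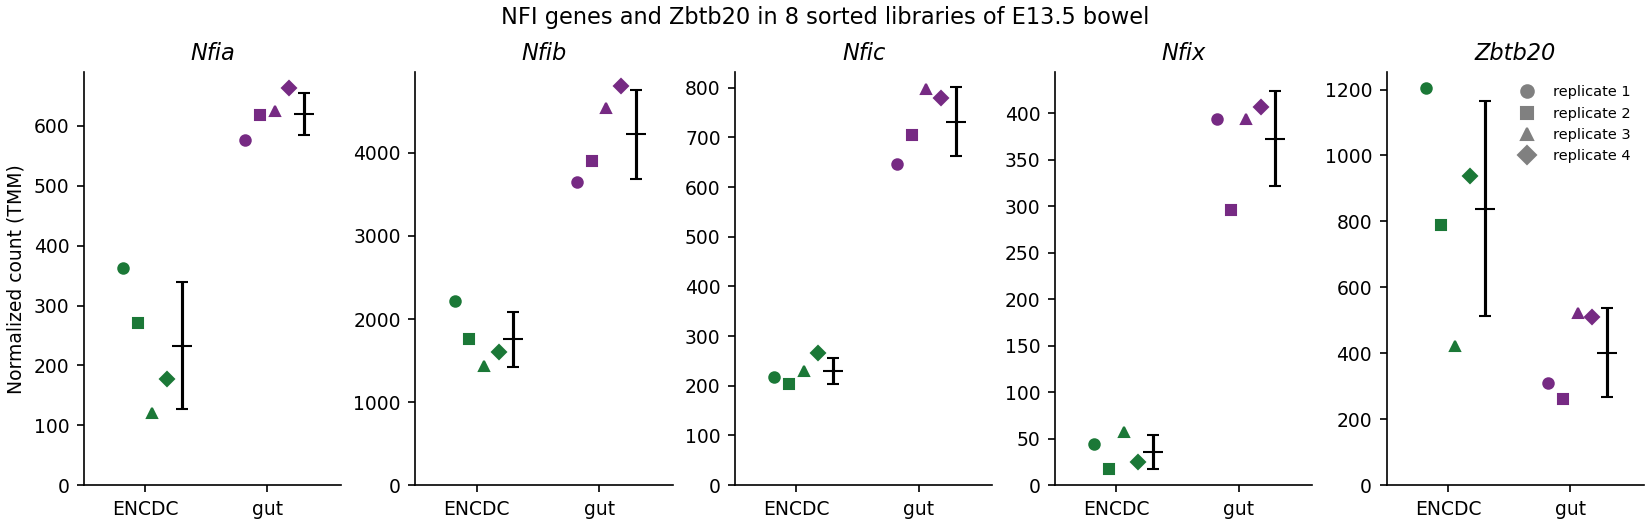
TMM-normalized counts (y axes, each from 0 and on its own scale) of the 5 genes in 4 ENCDC and 4 gut samples, 1 point per library with its replicate by shape, and the mean and SD in black. All 4 NFI genes are separated between the populations, *Nfix* most widely (17.3 to 57.2 against 296.4 to 407), while *Zbtb20* overlaps.

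The ENCDC samples were also set as percentages of the mean gut level, beside the summed markers of the other cell types. *Nfix* stood at 12%, 4.64%, 15.4% and 6.65% in ENCDC replicates 1 to 4. The 10 mesenchyme markers called lower stood at 4.88%, 1.74%, 12.1% and 2.67% in sum, below *Nfix* in each replicate. All 12 stood at 10.2%, 7.32%, 17.4% and 8.25%, above *Nfix* in replicates 2, 3 and 4. However, *Postn* and *Fbln1*, both called higher in ENCDCs, made up 53.5%, 77.1%, 32.8% and 68.7% of the counts of all 12 in ENCDC replicates 1 to 4. The 10-marker and 12-marker sums both ranked the 4 samples in the same order as *Nfix*, as did summed mesothelium and macrophage markers. For mesothelium, ENCDC replicates 2 and 4 were nearly tied (2.26% and 2.43%). The macrophage sum was mostly *Laptm5* (152, 82, 306 and 147 counts in ENCDC replicates 1 to 4), and its order rested on that gene. Summed smooth muscle, epithelium, endothelium and erythroid markers ranked the samples in other orders. The endothelium sum was mostly *Kdr* (1020, 631, 626 and 1028 counts in ENCDC replicates 1 to 4), the endothelium marker called higher in ENCDCs. *Nfia* (58.4%, 43.8%, 19.4% and 28.6%) and *Nfib* (52.4%, 41.8%, 34.1% and 37.9%) were instead lowest in replicate 3, where mesenchyme and muscle markers were highest. *Nfic* stood between 27.9% and 36.3% in all 4. The levels of *Nfia*, *Nfib* and *Nfic* in ENCDC samples were above both summed mesenchyme shares of the same library in each replicate. The part of other cell types in these levels was not tested.

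**Figure D3:**
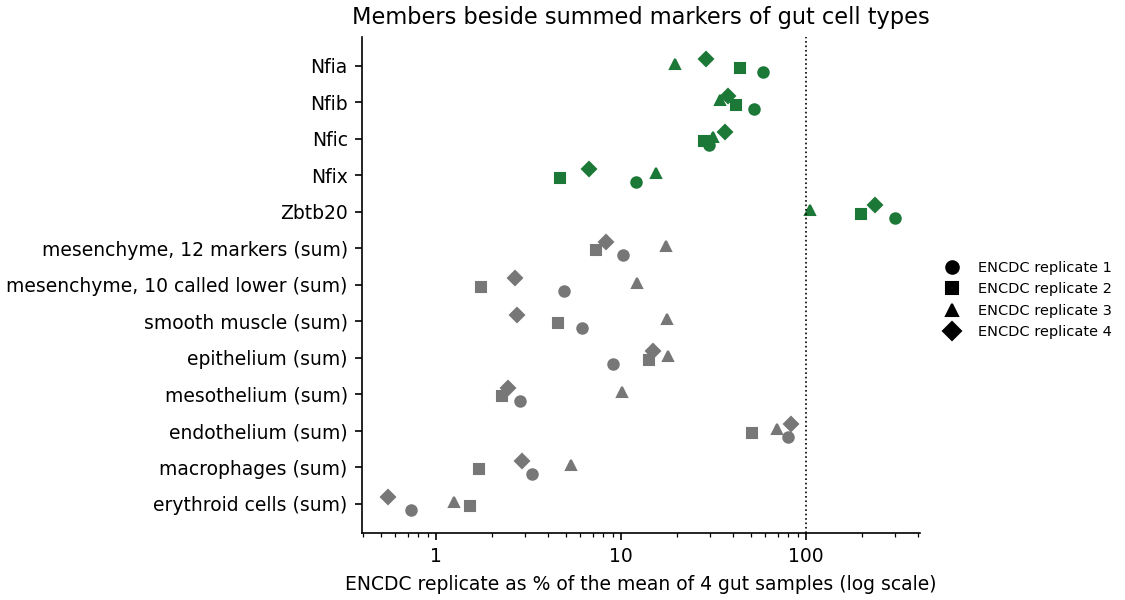
Level in each ENCDC sample as a percentage of the mean of the 4 gut samples (x axis, log scale, dotted line at 100) for the 5 genes (green) and the summed markers of 7 other cell types (grey), with the replicate by shape. *Nfix* (4.64% to 15.4%) lies above the sum of the 10 mesenchyme markers called lower (1.74% to 12.1%) in each replicate. Against the sum of all 12 (7.32% to 17.4%), *Nfix* lies below in replicates 2, 3 and 4. In that sum, *Postn* and *Fbln1*, called higher in ENCDCs, make up 32.8% to 77.1% of the ENCDC counts. *Nfia*, *Nfib* and *Nfic* lie between 19.4% and 58.4%, and *Zbtb20* lies at 105% or above. The endothelium sum is mostly *Kdr*, which was called higher in ENCDCs.

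For a comparison of levels between genes, normalized counts were divided by the length of all exons of the gene (normalized counts per kb). In gut samples, the level was 282.3 ± 36.1 for *Nfib*, 110.3 ± 10.5 for *Nfic*, 57.0 ± 3.21 for *Nfia*, 50.7 ± 6.97 for *Nfix* and 13.1 ± 4.40 for *Zbtb20* (SD over 4 libraries). *Nfia* and *Nfix*, neighbours in this order, overlapped. In ENCDC samples, the level was 117.3 ± 22.2 for *Nfib*, 34.5 ± 3.97 for *Nfic*, 27.3 ± 10.6 for *Zbtb20*, 21.4 ± 9.77 for *Nfia* and 4.90 ± 2.49 for *Nfix*. *Nfic* overlapped with *Zbtb20*, and *Zbtb20* with *Nfia*, while *Nfib* lay above and *Nfix* below the others in every ENCDC sample. The median over 18845 genes with a length was 35.0 per kb in ENCDCs and 43.0 in gut cells. Most of the exon length of *Zbtb20* is 3' UTR, and which UTR these cells use is not known from counts, so its level per kb rests on the annotation.

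The summed level of the 4 NFI genes was 178.1 ± 30.0 normalized counts per kb in ENCDCs and 500.3 ± 52.4 in gut cells (SD over 4 libraries). By library it ran from 149.6 to 220.0 in ENCDCs and from 447.9 to 554.7 in gut cells. Gut cells thus held 2.81 times the ENCDC level (two-sided exact permutation test, p = 0.0286, the smallest that 70 splits of 8 samples allow). *Zbtb20* per kb was 0.092 to 0.183 times the NFI sum in ENCDC samples and 0.0184 to 0.0318 times in gut samples. The log2 of this ratio differed by 2.53 (two-sided exact permutation test, p = 0.0286), and the ratio was higher in every ENCDC sample than in every gut sample, replicate 3 included.

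The share of each gene in the summed NFI level was compared within libraries. No share passed the test after adjustment. *Nfib* made up 65.7% ± 1.65 of the summed NFI level in ENCDCs and 56.3% ± 1.43 in gut cells (SD over 4 libraries). *Nfix* made up 2.83% ± 1.69 and 10.2% ± 1.34. Neither share overlapped between the populations. Each gave p = 0.0286 in the two-sided exact permutation test, or 0.0571 after Benjamini-Hochberg adjustment over the 4 shares, which misses 0.05. As 0.0286 is the smallest p that these samples allow, full separation of only 2 of the 4 shares cannot pass this adjustment. With no length correction the *Nfix* difference was -4.63 percentage points in place of -7.33. *Nfia* made up 11.6% ± 3.65 and 11.4% ± 0.708 (p = 1 by the exact test), with a difference of 0.178 percentage points whose sign depended on the length used. *Nfic* made up 19.9% ± 4.39 and 22.1% ± 0.771 (exact p = 0.429). Its difference of -2.21 percentage points was -0.546 without ENCDC replicate 1, -1.41 without ENCDC replicate 2, -3.28 without ENCDC replicate 3 and -3.58 without ENCDC replicate 4. Shares add up to 100%, so the 4 are not independent. In ENCDC replicates 3 and 4 the *Nfic* share (23.1% and 24%) was above that of replicates 1 and 2 (14.9% and 17.5%), and the *Nfia* share (7.4% and 9.78%) was below (15.1% and 14.2%).

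**Figure D4:**
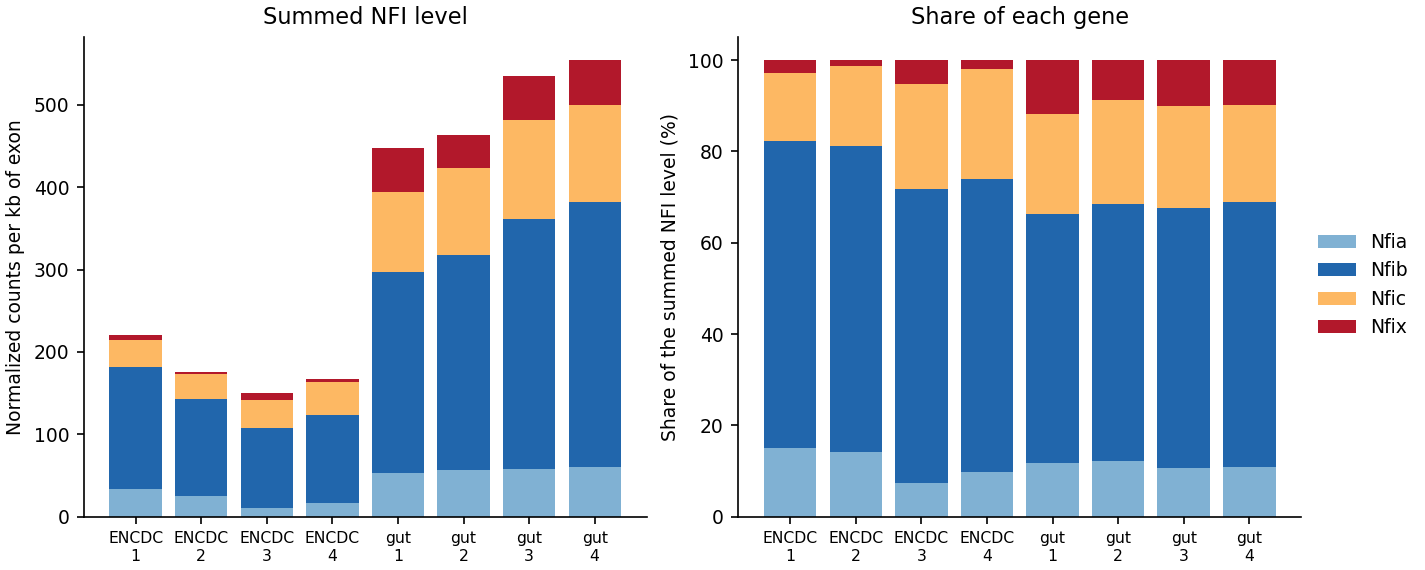
Left, summed level of the 4 NFI genes in each library (y axis, normalized counts per kb of exon), and right, the share of each gene in that sum (y axis, %). The bars are 149.6 to 220.0 high in ENCDCs and 447.9 to 554.7 in gut cells, with *Nfib* above 54% in every library and *Nfix* at 1.34% to 5.21% in ENCDCs against 8.7% to 12% in gut cells.

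The genes whose level ran most like each member over the 8 libraries were found among 10926 genes whose mean count reached 100, by Pearson's r of log2(normalized count + 1). Because the 8 libraries fall into 2 populations, r mostly describes the difference between them, and it is given as a description. The 3 genes most like *Nfix* were *Col1a2* (r = 0.998), a collagen of mesenchyme, *Ppp1r3b* (0.998) and *Tmem45a* (0.997). Those most like *Nfic* were *Npr3* (0.998), the natriuretic peptide clearance receptor, *Cpq* (0.997) and the receptor kinase gene *Axl* (0.997). Those most like *Nfib* were *Armcx3* (0.995), *Ugp2* (0.994) and *Prss23* (0.992). Those most like *Nfia* were *Has2* (0.989), a hyaluronan synthase, the tissue factor gene *F3* (0.989) and *Pbx3* (0.987). These 12 genes were called lower in ENCDCs, with log2 fold changes from -0.74 (*Pbx3*) to -4.30 (*Tmem45a*).

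Far fewer genes ran like *Zbtb20*. Genes with r above 0.95 numbered 15 for *Zbtb20* (0.137%), 87 for *Nfia* (0.796%), 260 for *Nfib* (2.38%), 591 for *Nfic* (5.41%) and 633 for *Nfix* (5.79%). The 3 most like *Zbtb20* were *Nkap* (r = 0.988), *Ccnj* (0.976) and *Adam22* (0.976). Their log2 fold changes were 0.45, 0.85 and 0.42, with adjusted p of 0.0469, 0.0137 and 0.104 from edgeR. *Nkap* lost its call when any single library but ENCDC replicate 3 was left out (adjusted p of 0.0603 to 0.14).

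Reads cannot be assigned to a strand in these libraries, so genes that overlap a member were examined. By the annotation, 11 genes of the count table overlapped a member. Of these, 8 were tested and 4 were called (2 higher and 2 lower), while 37.9% of all genes tested were called in either direction. Of the 11, 5 share exon bases with the member they overlap. The wider intervals in the table itself add 2 more, *Trmt1* beside *Nfix* and *4932412D23Rik* beside *Zbtb20*. No 50-base stretch was shared between the transcripts of any pair of members. *E130114P18Rik*, which starts beside *Nfia* and runs the opposite way (chromosome 4, 97568133 to 97778078, 4 shared exon bases), had 912, 931, 446 and 639 counts in ENCDC samples and 20, 23, 17 and 16 in gut samples. Its direction was the opposite of that of *Nfia*, with a log2 difference of 5.31 ± 0.30 (standard error; edgeR adjusted p = 2.2e-07). Like *Nfia*, it was lowest in ENCDC replicate 3.

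Inside *Nfic*, the antisense gene *Gm16104* (72 shared exon bases) had 20, 18, 29 and 18 counts in ENCDC samples and 0, 0, 4 and 0 in gut samples (adjusted p = 0.0115 from edgeR), opposite to *Nfic*. Inside *Nfix*, *G430095P16Rik* (137 shared exon bases) had 2 to 8 counts in the ENCDC libraries, against 31 to 47 in gut, a log2 fold change of -2.71 (adjusted p = 0.00443 from edgeR). *Lyl1*, a blood cell transcription factor with 4 exon bases shared with *Nfix*, had no count in ENCDC samples and 65 in all in gut samples, at least 21.7-fold lower with the ENCDC group set at 3 counts. Both lay in the direction of *Nfix*, and the counts of both were well below its own. *Gm9968*, which shares 104 exon bases with *Zbtb20*, had 6 to 18 counts in the ENCDC libraries, against 16 to 28 in gut and was not called (adjusted p = 0.212 from edgeR).

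Genes linked to NFI factors in the nervous system, as partners or reported targets, went both ways. Of 15 listed genes, 14 were tested, and 5 were higher and 6 lower in ENCDCs. Over all genes tested, 17.0% were higher and 20.9% lower. The median log2 fold change of the listed genes was -0.34 against -0.04 for all genes. The higher ones were *Cdh2* (3.03), which encodes N-cadherin, *Fabp7* (3.94), a lipid-binding protein of glial progenitors, *Insc* (4.30), which orients the spindle of dividing progenitors, *Mmd2* (3.04) and *Ezh2* (0.64), a histone methyltransferase of the Polycomb group. *Fabp7* is also on the list of ENCDC progenitor markers. Among the lower ones, *Zcchc24* had the highest counts (-0.56). Chosen after their values were seen, the other 5 were *Slc1a3* (-2.63), a glial glutamate transporter gene, *Ephb1* (-0.95), *Apcdd1* (-1.38), *Sox9* (-0.95) and *Bbx* (-0.63). Without gut replicate 1, only 3 genes were lower: *Apcdd1* (adjusted p = 0.053 from edgeR), *Bbx* (0.0559) and *Sox9* lost their calls. *Sox9*, which acts with NFIA in the start of gliogenesis in the spinal cord, also lost its call without any other single library but ENCDC replicate 3 (0.0514 to 0.0712 over these 7).

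Genes reported to be repressed by ZBTB20 in brain or liver also went both ways. Of 12 listed, 10 were tested, with 3 higher, 3 lower and a median log2 fold change of 0.68 (over all genes, 17.0% higher, 20.9% lower and a median of -0.04). The corepressor gene *Tle4* (1.10), *Mef2c* (2.18) and *Sox5* (1.35), transcription factors of neurons among other cells, were higher in ENCDCs, as was *Zbtb20*. *Foxp2*, a forkhead factor, had 215 to 445 counts in the ENCDC libraries, against 2174 to 3188 in gut (-3.13, standard error 0.22, adjusted p = 8.82e-07 from edgeR). Named after their values were seen, *Zfpm2* (-3.57) and *Afp* (-1.81) were also lower. *Afp*, the liver target of ZBTB20 named above, had 86, 306, 58 and 29 counts in ENCDC samples and 463, 464, 365 and 443 in gut samples. Its call was lost without ENCDC replicate 1 or without gut replicates 1, 2 or 4 (adjusted p of 0.0516 to 0.0658 from edgeR).

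Of 43 other BTB zinc finger genes tested, 5 were higher, 6 were lower and 32 were not called, with a median log2 fold change of 0.06, beside the same 17.0% higher and 20.9% lower over all genes. *Zbtb18*, a repressor needed for cortical neurons, had the largest increase at 4.10 (1218 to 2096 counts in ENCDC samples, 75 to 117 in gut samples). *Patz1* (0.88), *Zbtb38* (0.72), *Zbtb22* (0.61) and *Zbtb10* (0.77) were also higher. *Hic1*, a repressor of mesenchyme among other tissues, had the largest decrease at -4.00, with 98, 56, 444 and 84 counts in ENCDC replicates 1 to 4, against 2629 to 2973 in gut, and was highest among ENCDC samples in replicate 3. *Zbtb44* fell by 0.92 on the log2 scale. The number of higher genes rested on single libraries: it was 2 without ENCDC replicate 1, 8 without ENCDC replicate 3 and 3 without gut replicate 3. *Zbtb10* (adjusted p of 0.0525 to 0.0889 from edgeR), *Zbtb22* (0.0524 to 0.0708) and *Zbtb38* (0.0511 to 0.0524) lost their calls without 6, 4 and 2 of the single libraries.

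**Figure D5:**
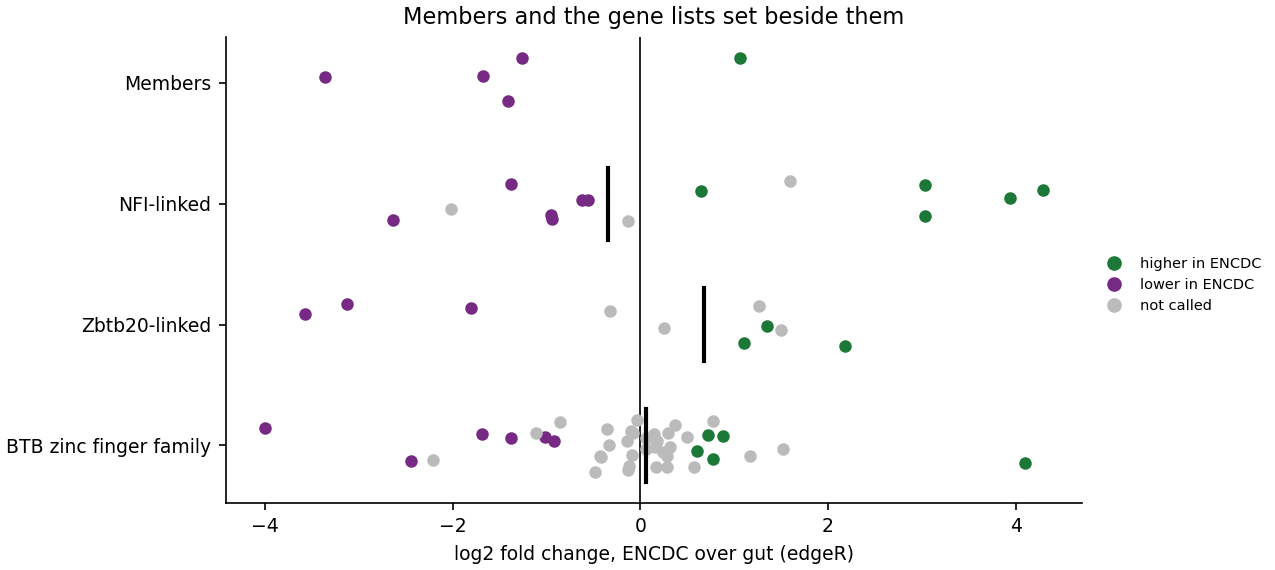
Difference between ENCDCs and gut cells (x axis, log2 fold change from edgeR) of the 5 members and the tested genes of 3 lists, 1 point per gene, green for genes called higher in ENCDCs, purple for genes called lower and grey for genes not called, with the median of each list as a black bar. The medians are -0.34, 0.68 and 0.06, and each list has called genes on both sides of 0.

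The genes that hold the miRNAs' hairpins were read from the same libraries. A host transcript is not the mature miRNA, and mature miRNAs were not analysed here. The study had picked its miRNAs because small RNA sequencing of the same sorted populations found them enriched in ENCDCs. Higher host transcripts in ENCDCs were therefore likely beforehand. Of 16 host gene names listed, 6 were in the table, and 4 were higher in ENCDCs and 0 lower. Over all genes tested, 17.0% were higher and 20.9% lower. *2010111I01Rik*, which contains the hairpin of miR-27b on its own strand, had 3273 to 3776 counts in the ENCDC libraries, against 674 to 816 in gut (log2 fold change 2.28, standard error 0.10, adjusted p = 3.76e-08 from edgeR). *Astn1*, a neuronal adhesion gene that contains miR-488, rose by 3.96 on the log2 scale (0.47, 6.44e-05). *C130071C03Rik*, with a hairpin of miR-9, had 183, 201, 91 and 166 counts in ENCDC samples and 5, 0, 0 and 0 in gut samples (6.92, 0.84, 7.56e-05). *Mir124a-1hg*, a host of miR-124 by its name, had 64, 61, 82 and 68 counts in ENCDC samples and none in gut samples, at least 91.7-fold higher with the gut group set at 3 counts. *Mir9-3hg* (13 counts or fewer in every library) and *A330023F24Rik* (also 13 or fewer), which contains none of the hairpins searched, were not called.

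A search by position, made after the list was drawn up, added hosts of miR-137 and of the third miR-9 locus. *Gm26871*, which contains the miR-137 hairpin, had 146, 74, 454 and 83 counts in ENCDC samples and 0, 11, 3 and 1 in gut samples (log2 fold change 5.65, standard error 0.93, adjusted p = 0.000634 from edgeR), with its highest value in ENCDC replicate 3. *Gm3764*, with another miR-9 hairpin, had 19 counts or fewer and was not called (adjusted p = 0.631). Transcripts of at least 1 host of each of the 5 miRNAs were thus higher in ENCDCs, where *Nfia* and *Nfib* were lower and *Zbtb20*, with matches for the same 4 miRNAs, was higher. *Nfic* and *Nfix*, with matches for 1 of the 4, were lower as well. Both are also on the study's list of predicted miR-124 targets, and miR-124 matches were not searched. The levels of the miRNAs' hosts and of their predicted targets come from the same libraries, and no relation between them was tested. The direction of the hosts is also not independent of how the study picked the miRNAs.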

How the data were processed

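mRNA-seq of 4 ENCDC and 4 gut libraries was used (SMARTer cDNA and NexteraXT libraries, with no strand kept). Per the labels and the methods, the authors used STAR 2.4.2a (mm10) and PORT, and the deposited values are the minimum read counts after normalization, whole-number counts brought to nearly equal totals (13250893 to 13267220), which limits the precision of genes with few counts. Small RNAs and CPM are named in the design text, which whole numbers with these totals are not, so the values were taken as mRNA counts.

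Genes were tested when, in either population, the mean count was 3 or more and at least 3 of 4 libraries had a count. This left 18866 of 29092 genes, tested with edgeR 4.0.16 in R 4.3.3 (TMM factors, quasi-likelihood F test, Benjamini-Hochberg adjustment). A gene was called at an adjusted p under 0.05. The fit was also run on simulated counts. Far fewer genes differed there than here, so that run does not measure the error rate in these data. The authors used voom and limma. Shares, sums and ratios of the NFI genes were compared with two-sided exact permutation tests (scipy 1.17.1). Alternatives were voom and limma 3.58.1, DESeq2 1.42.0, RLE factors, no factors, other filters, other gene lengths, a replicate block and leaving out each library. The members and lists were chosen with earlier results of these data known. The text names the members, up to 4 called genes of each list with the highest mean count and any called against most of it, the 3 genes most like each member, and genes overlapping a member, apart from those said to be chosen later. Gene types, positions and UTRs come from GENCODE M21, and miRNA sequences and hairpin positions from RefSeq. The study's lists of predicted targets gave only membership.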

Additional observations from a re-analysis of the deposited data

Results flagged for a closer look

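*Nfix* in gut samples was the only group of 4 values of the 22 examined in which a single sample lay far from the others: gut replicate 2 had 296.4 normalized counts, while the other 3 gut samples had 393.5 to 407, and its gap to the nearest of them took up 0.878 of the whole range. Chance gives such a gap in about 1 of 20 groups. Without gut replicate 2, the log2 fold change of *Nfix* was -3.49 (adjusted p = 0.000125 from edgeR).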

How the results depend on the processing

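*Nfia*, *Nfib*, *Nfic* and *Nfix* kept their direction and their call under all 15 alternatives, with log2 fold changes of -1.71 to -1.20, -1.40 to -1.18, -1.75 to -1.62 and -3.68 to -3.14 when single libraries were left out. *Zbtb20* kept its direction under all 15 and its call under 11. Its log2 fold change ran from 0.836 to 1.284 when single libraries were left out, and with the replicate number as a block it was 1.041 (adjusted p = 0.0508 from edgeR). The replicate numbers are shared between the populations, but samples with the same number did not deviate together (correlations of 0.00554, 0.0318, -0.0133 and 0.00484), so the block pairs samples by number only. It ended no other member's call, and called 2609 genes higher and 3324 lower against 3212 and 3946 without it. The difference in *Nfia* share, 0.178 percentage points, turned to -0.086 with the longest transcript as length and to -0.507 with no length correction, and ran from -0.993 to 1.585 without single libraries. The *Nfic* share difference ran from -3.583 to -0.546 without single libraries, and the *Nfix* one was -4.631 with no length correction. The cause was not tested. The NFI-linked genes called lower numbered 3 to 6 and the BTB zinc finger genes called higher 2 to 8 without single libraries. Shares with 3 against 4 libraries are values with no test. The fit on all 29092 genes put the median log2 fold change at -0.14, against -0.04. With 4 libraries each, the exact tests cannot go below p = 0.0286, and low counts limit *Nfix* in ENCDCs and the overlapping antisense genes.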
